A study of Homo sapiens with 18 samples.

Results

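The mitosis genes are 46 genes whose products enter, organise or end cell division, listed by symbol. All 46 were found by Ensembl identifier among the 63677 genes of the deposited count table, and all 46 passed the low-count filter that left 18121 genes for testing. They were measured by poly(A) RNA sequencing in 18 libraries of WM989 cells, a line grown from a human melanoma. One set of cells was treated for 7 days with EPZ5676 at 4 µM, which blocks DOT1L, the enzyme that methylates lysine 79 of histone H3, and the other set was treated for the same time with DMSO, the solvent. Within each treatment, RNA came from cells with high levels of the surface receptors NGFR and EGFR (high cells), from the unselected population (bulk cells) or from cells with low levels of both receptors (low cells). This gave 6 groups of 3 libraries: EPZ5676 high, EPZ5676 bulk, EPZ5676 low, DMSO high, DMSO bulk and DMSO low. All groups share 1 line, and nothing in the labels says whether the 3 libraries of a group came from separate cultures, so the p-values below measure the spread between these libraries only. The comparisons ask how sorted cells differed from one another and what 7 days of DOT1L inhibition changed in each population.

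Entry into mitosis is driven by cyclin A and cyclin B bound to the kinase CDK1, which CDC25 phosphatases activate. Polo-like and Aurora kinases, kinesin motors and the kinetochore then build the spindle and attach chromosomes to it, and the spindle checkpoint holds back the anaphase-promoting complex (APC/C, a ubiquitin ligase) until every chromosome is attached. Most of these genes are transcribed in G2 and mitosis, under MuvB complexes with the factors MYBL2 and FOXM1, so their summed RNA level is widely used as a proliferation readout.

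The libraries held 13383741 to 26311674 counts assigned to genes. Reads that fell on no annotated gene made up 12.8 to 28.65% of each library. They alone are called unassigned below, and reads that fell on several genes are not part of that share. By it 6 libraries stood above 16%: EPZ5676 bulk replicates 1 and 3, EPZ5676 high replicates 1 and 2, EPZ5676 low replicate 1 and DMSO high replicate 3. Levels are given as CPM (counts for each 1000000 assigned counts) after scaling by the trimmed mean of M values (TMM). NGFR stood at 767, 768 and 645 CPM in EPZ5676 high cells, against 3.64, 6.86 and 1.05 CPM in EPZ5676 low cells, and at 563, 537 and 617 CPM in DMSO high cells, against 0.639, 1.61 and 0.764 CPM in DMSO low cells, so the sort label and the receptor's RNA had the same order. DMSO bulk replicate 1 stood apart from its group, with 220.3 CPM of NGFR where the other two DMSO bulk libraries had 12.6 and 9.24 CPM. The target of the drug, DOT1L, had 127, 121 and 127 CPM in EPZ5676 bulk cells, against 169, 147 and 131 CPM in DMSO bulk cells; inhibition of the enzyme need not change its RNA, so this is no check of the treatment. The 8 melanocytic markers (PMEL, MLANA, TYR, TYRP1, DCT, MITF, SOX10, S100B) were detected in every library. Their sum was 1851 to 2024 CPM in EPZ5676 high cells and 14131 to 14308 CPM in EPZ5676 low cells, and 1235 to 1448 CPM in DMSO high cells and 11341 to 11813 CPM in DMSO low cells. The sum of 8 fibroblast markers was 603 to 743 CPM in EPZ5676 high cells and 97.7 to 100.3 CPM in EPZ5676 low cells, and 1076 to 1411 CPM in DMSO high cells and 72.4 to 75.5 CPM in DMSO low cells. Of those 8 genes, 6 were higher and 1 (LUM) was lower in high cells under both treatments, while THY1 never passed 0.234 CPM and was at 0 in 4 libraries. Summed leukocyte markers stayed at or below 2.50 CPM. Among keratinocyte markers KRT10 alone exceeded 0.234 CPM in any library.

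Per kilobase of annotated exon, averaged over the 18 libraries, UBE2S, TPX2 and UBE2C stood highest among the mitosis genes, at 106 CPM per kilobase each. CDC20 followed at 90.4 CPM per kilobase. TTK, NDC80 and CDC25C stood lowest, at 7.50, 5.99 and 2.33 CPM per kilobase. Every member had at least 80 counts in its lowest library.

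Together the 46 genes summed to 7664, 7540.3 and 8089 CPM in EPZ5676 high cells, 5811, 5970.3 and 6113 CPM in EPZ5676 bulk cells and 5213, 5206 and 5548 CPM in EPZ5676 low cells. In DMSO the sums were 8399, 8137 and 8290.1 CPM in high cells, 6949, 6006 and 6034 CPM in bulk cells and 5455, 5269.5 and 5314 CPM in low cells. The order was the same in both treatments: high cells on top, bulk cells next and low cells at the bottom, with no overlap between high and bulk or between bulk and low libraries of a treatment. The summed level in high cells was 1.46 times that in low cells under EPZ5676 and 1.55 times under DMSO. Bulk cells stood at 1.12 times low cells under EPZ5676 and at 1.18 times under DMSO, or 1.13 times without DMSO bulk replicate 1. The sums of EPZ5676 bulk and DMSO bulk libraries overlapped, as did those of EPZ5676 low and DMSO low libraries, whereas every EPZ5676 high library lay below every DMSO high library with TMM scaling. As a share of all gene counts, with no such scaling, those libraries overlapped, at 0.743, 0.740 and 0.792% in EPZ5676 high cells and 0.809, 0.783 and 0.797% in DMSO high cells. Scaling by library size alone put the DMSO high mean at 7973 CPM, against 8275 ± 132 CPM with TMM scaling (SD, n = 3). In RNA from pooled cells, a larger share of dividing cells and more mitotic RNA per dividing cell cannot be told apart.

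**Figure D1:**
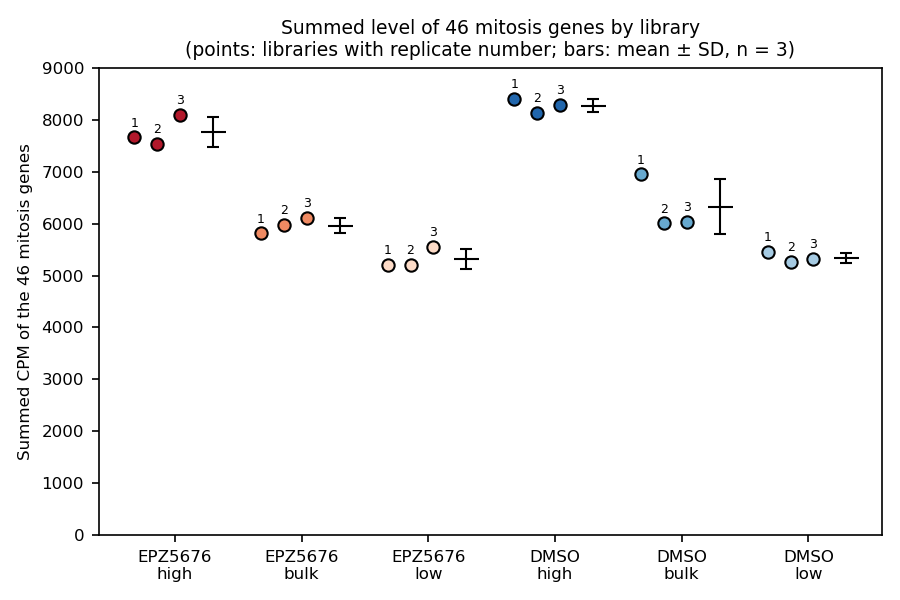
Summed level of the 46 mitosis genes (TMM-scaled CPM, vertical axis from 0) in each of the 6 groups; points are the 3 libraries, numbered by replicate, and the bar is the mean ± SD. High cells lie above bulk and low cells in both treatments, and DMSO bulk replicate 1, at 6949 CPM, is the highest bulk library.

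High cells carried more RNA for most of the mitotic machinery than low cells, with and without DOT1L inhibition. Of the 46 genes, 40 rose in EPZ5676 high over EPZ5676 low cells and 1 fell, at an adjusted p below 0.05 (edgeR quasi-likelihood test, Benjamini-Hochberg over 18121 genes), where 25.8% of all tested genes rose and 23.1% fell. In DMSO high over DMSO low cells, 40 rose and 1 fell, where 29.6% of all tested genes rose and 26.7% fell. The 40 higher genes were the same in both treatments, and the 1 lower gene was CDC20 in both. The median log2 fold change of the 46 was 0.49 under EPZ5676 and 0.61 under DMSO, against 0.02 and 0.03 over all tested genes. Non-overlapping libraries, all 3 high above all 3 low, were found for 41 members under EPZ5676 (31.5% of all tested genes) and for 39 under DMSO (31.6%). Lower non-overlapping libraries were found for 2 members under EPZ5676 (28.8% of all tested genes) and for 1 under DMSO (28.7%). In 30 members all 6 high libraries lay above all 12 other libraries, a count given without its share over all tested genes. The log2 fold changes below are followed by their standard errors.

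**Figure D2:**
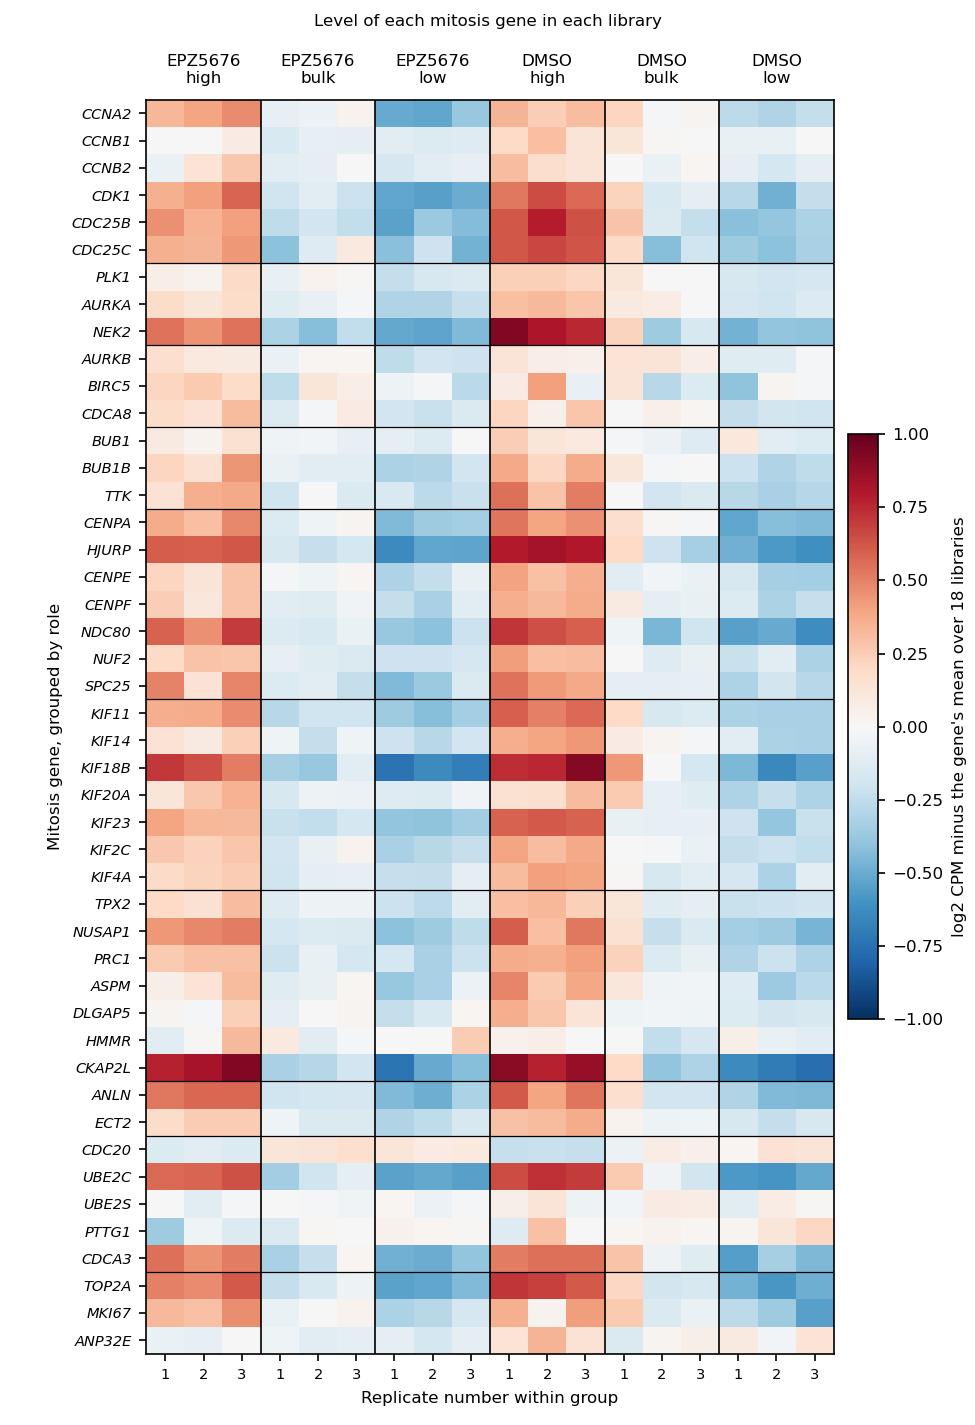
Each of the 46 mitosis genes (rows, ordered by role) in each of the 18 libraries (columns, grouped by treatment and sort), coloured by its log2 level relative to its own mean over the libraries. The 6 high libraries are raised over most rows, while CDC20 runs the other way and HMMR and UBE2S stay within -0.02 to 0.08 on the log2 scale between high and low cells.

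All 6 cyclin and CDK1 genes rose. CCNB1, cyclin B1, had 137, 138 and 146 CPM in EPZ5676 high cells, against 128, 125 and 126 CPM in EPZ5676 low cells, and 158, 170.0 and 151 CPM in DMSO high cells, against 131, 131 and 137 CPM in DMSO low cells. The high and low libraries did not overlap in either treatment, but the difference was small, with log2 fold changes of 0.15 ± 0.05 under EPZ5676 (edgeR adjusted p = 0.0248) and 0.27 ± 0.05 under DMSO (edgeR adjusted p = 2.44e-04). CDK1, the kinase that cyclin B activates, had 148, 154 and 173 CPM in EPZ5676 high cells, against 80.8, 79.3 and 82.2 CPM in EPZ5676 low cells, and 167, 182 and 171 CPM in DMSO high cells, against 95.7, 83.0 and 98.0 CPM in DMSO low cells. Its high libraries stood far above its low libraries, with log2 fold changes of 0.97 ± 0.08 under EPZ5676 (edgeR adjusted p = 1.73e-08) and 0.91 ± 0.08 under DMSO (edgeR adjusted p = 1.30e-08). CDC25B, a phosphatase that starts CDK1 activation, had 384, 357 and 373 CPM in EPZ5676 high cells, against 193, 217 and 208 CPM in EPZ5676 low cells, and 431, 483 and 435 CPM in DMSO high cells, against 209.9, 215 and 225 CPM in DMSO low cells. No high library came near a low one, and the log2 fold changes were 0.85 ± 0.09 under EPZ5676 (edgeR adjusted p = 9.96e-07) and 1.06 ± 0.09 under DMSO (edgeR adjusted p = 4.55e-08). CDC25C, its partner at mitotic onset, changed by log2 0.73 under EPZ5676 and 1.00 under DMSO on a much lower level. It had 9.71 ± 0.299 CPM in EPZ5676 high and 5.83 ± 0.583 CPM in EPZ5676 low cells (SD, n = 3 each). Of its exonic bases 8.78% are shared with FAM53C on the opposite strand, at 37.5 CPM. Reads there could belong to that gene or have been set aside as falling on several genes. CCNA2, cyclin A2, changed by log2 0.87 under EPZ5676 and 0.57 under DMSO. CCNB2, cyclin B2, changed by log2 0.24 under EPZ5676 and 0.32 under DMSO.

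The 3 mitotic kinases also rose. PLK1, which drives centrosome maturation and spindle assembly, had 164, 161 and 179 CPM in EPZ5676 high cells, against 133, 140.5 and 142 CPM in EPZ5676 low cells, and 185, 185 and 181 CPM in DMSO high cells, against 140.4, 137 and 139.9 CPM in DMSO low cells. Its libraries did not overlap between high and low cells, and the log2 fold changes were 0.28 ± 0.05 under EPZ5676 (edgeR adjusted p = 1.80e-04) and 0.40 ± 0.05 under DMSO (edgeR adjusted p = 2.19e-06). AURKA, the spindle-pole Aurora kinase, had 147, 140.5 and 147 CPM in EPZ5676 high cells, against 105, 105 and 110.2 CPM in EPZ5676 low cells, and 159, 162 and 157 CPM in DMSO high cells, against 115, 113 and 118 CPM in DMSO low cells. All high libraries again exceeded all low libraries, by log2 0.44 ± 0.05 under EPZ5676 (edgeR adjusted p = 4.06e-07) and 0.47 ± 0.05 under DMSO (edgeR adjusted p = 9.35e-08). NEK2, which separates centrosomes, had 53.8, 50.4 and 54.0 CPM in EPZ5676 high cells, against 25.9, 25.7 and 27.3 CPM in EPZ5676 low cells, and 70.1, 64.9 and 62.4 CPM in DMSO high cells, against 26.7, 28.1 and 28.0 CPM in DMSO low cells. NEK2 showed the largest difference of the 3 kinases, with log2 fold changes of 1.00 ± 0.10 under EPZ5676 (edgeR adjusted p = 9.32e-08) and 1.25 ± 0.10 under DMSO (edgeR adjusted p = 2.22e-09).

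The chromosomal passenger complex, which corrects wrong chromosome attachments, had 2 of its 3 genes higher. AURKB, its kinase, had 156, 149 and 148 CPM in EPZ5676 high cells, against 117, 122 and 120.3 CPM in EPZ5676 low cells, and 152, 146 and 144 CPM in DMSO high cells, against 128, 128 and 138 CPM in DMSO low cells. The libraries did not overlap in either treatment, and the log2 fold changes were 0.34 ± 0.05 under EPZ5676 (edgeR adjusted p = 1.27e-05) and 0.17 ± 0.05 under DMSO (edgeR adjusted p = 0.00798). BIRC5, survivin, had 45.5, 47.1 and 44.7 CPM in EPZ5676 high cells, against 37.8, 39.0 and 32.5 CPM in EPZ5676 low cells, and 41.5, 52.1 and 37.2 CPM in DMSO high cells, against 29.7, 40.1 and 38.8 CPM in DMSO low cells. Its EPZ5676 high and low libraries did not overlap and its DMSO libraries did, and it did not pass the test at 0.33 ± 0.14 under EPZ5676 (edgeR adjusted p = 0.0668) and 0.27 ± 0.14 under DMSO (edgeR adjusted p = 0.116). Under EPZ5676 7 of 29 other settings called it higher, DESeq2 among them, while under DMSO 2 did. CDCA8, borealin, changed by log2 0.40 under EPZ5676 and 0.39 under DMSO and passed in both. Among the 3 spindle checkpoint genes, BUB1B, the BUBR1 protein that binds CDC20, had 94.3, 90.5 and 110.5 CPM in EPZ5676 high cells, against 65.3, 65.9 and 71.1 CPM in EPZ5676 low cells, and 106, 94.1 and 105 CPM in DMSO high cells, against 70.0, 66.1 and 68.3 CPM in DMSO low cells. Its high libraries all lay above its low libraries, with log2 fold changes of 0.55 ± 0.07 under EPZ5676 (edgeR adjusted p = 1.68e-06) and 0.58 ± 0.07 under DMSO (edgeR adjusted p = 4.23e-07). TTK, the checkpoint kinase MPS1, changed by log2 0.52 under EPZ5676 and 0.75 under DMSO. BUB1, the kinase that recruits the checkpoint to kinetochores, changed by log2 0.17 under EPZ5676 and 0.20 under DMSO, and its DMSO high and low libraries overlapped.

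All 7 centromere and kinetochore genes rose. HJURP, the chaperone that loads the centromeric histone CENP-A, had 177, 176 and 179 CPM in EPZ5676 high cells, against 74.6, 80.9 and 80.6 CPM in EPZ5676 low cells, and 201, 207 and 202 CPM in DMSO high cells, against 83.4, 78.1 and 76.1 CPM in DMSO low cells. The high libraries lay well above the low ones, with log2 fold changes of 1.17 ± 0.09 under EPZ5676 (edgeR adjusted p = 6.06e-09) and 1.36 ± 0.09 under DMSO (edgeR adjusted p = 3.64e-10). CENPA, the histone itself, had 52.4, 49.9 and 56.6 CPM in EPZ5676 high cells, against 29.9, 31.6 and 32.0 CPM in EPZ5676 low cells, and 58.6, 53.2 and 55.6 CPM in DMSO high cells, against 28.2, 30.1 and 29.8 CPM in DMSO low cells. It did not overlap either, and its log2 fold changes were 0.77 ± 0.07 under EPZ5676 (edgeR adjusted p = 4.36e-08) and 0.92 ± 0.07 under DMSO (edgeR adjusted p = 1.63e-09). NDC80, the microtubule-binding arm of the outer kinetochore, had 30.8, 28.0 and 33.2 CPM in EPZ5676 high cells, against 15.7, 15.4 and 17.6 CPM in EPZ5676 low cells, and 33.5, 31.9 and 30.9 CPM in DMSO high cells, against 14.0, 14.4 and 13.3 CPM in DMSO low cells. Low cells thus held the lower values in every library, and the log2 fold changes were 0.92 ± 0.10 under EPZ5676 (edgeR adjusted p = 1.92e-07) and 1.21 ± 0.10 under DMSO (edgeR adjusted p = 3.24e-09). NUF2 and SPC25, which sit in the same complex, and the large kinetochore proteins CENPE and CENPF changed by log2 0.41 to 0.70 under EPZ5676 and 0.56 to 0.71 under DMSO. CENPA shared 6.96% of its exonic bases with SLC35F6 on the same strand. Reads there could have been set aside as falling on several genes, so its counts could miss a small part of its RNA.

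All 7 kinesins and both cytokinesis genes rose. KIF18B, which shortens microtubules at their plus ends, had 149.8, 144 and 131 CPM in EPZ5676 high cells, against 55.2, 59.1 and 56.9 CPM in EPZ5676 low cells, and 153, 155 and 174 CPM in DMSO high cells, against 67.2, 58.7 and 63.1 CPM in DMSO low cells. It had the largest difference of the kinesins, with log2 fold changes of 1.31 ± 0.12 under EPZ5676 (edgeR adjusted p = 3.32e-07) and 1.35 ± 0.12 under DMSO (edgeR adjusted p = 1.13e-07). KIF23, the motor of the centralspindlin complex at the division plane, had 149, 143 and 142 CPM in EPZ5676 high cells, against 86.5, 86.0 and 89.3 CPM in EPZ5676 low cells, and 170.5, 174 and 170.5 CPM in DMSO high cells, against 98.3, 86.8 and 97.3 CPM in DMSO low cells. Its libraries were tight within groups and well apart between them, with log2 fold changes of 0.73 ± 0.05 under EPZ5676 (edgeR adjusted p = 2.40e-09) and 0.87 ± 0.05 under DMSO (edgeR adjusted p = 1.53e-10). KIF11, which pushes spindle poles apart, changed by log2 0.78 under EPZ5676 and 0.88 under DMSO. The other four, KIF14 and KIF20A of the midzone, the depolymerase KIF2C and the chromosome-arm motor KIF4A, changed by log2 0.35 to 0.54 under EPZ5676 and 0.50 to 0.64 under DMSO. ANLN, anillin, the scaffold of the contractile ring, had 370.3, 383 and 383 CPM in EPZ5676 high cells, against 189, 183 and 207 CPM in EPZ5676 low cells, and 393, 338 and 372 CPM in DMSO high cells, against 209, 189 and 188 CPM in DMSO low cells. Its high and low libraries were far apart, with log2 fold changes of 0.97 ± 0.08 under EPZ5676 (edgeR adjusted p = 1.32e-08) and 0.91 ± 0.08 under DMSO (edgeR adjusted p = 9.29e-09). ECT2, the exchange factor that activates RhoA at the furrow, changed by log2 0.47 under EPZ5676 and 0.51 under DMSO.

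Of the 7 spindle assembly genes, 6 rose. CKAP2L, a spindle-binding protein, had the largest log2 fold change of all 46 genes in both treatments and stood at 106, 109.9 and 118 CPM in EPZ5676 high cells, against 37.5, 43.8 and 46.2 CPM in EPZ5676 low cells, and 116, 106 and 114 CPM in DMSO high cells, against 40.0, 38.4 and 36.9 CPM in DMSO low cells. Every high library exceeded every low one, with log2 fold changes of 1.39 ± 0.12 under EPZ5676 (edgeR adjusted p = 7.42e-08) and 1.54 ± 0.12 under DMSO (edgeR adjusted p = 9.62e-09). TPX2, which activates AURKA on the spindle, NUSAP1 and PRC1, which bundle microtubules, and ASPM, which works at the spindle poles, changed by log2 0.41 to 0.81 under EPZ5676 and 0.51 to 0.87 under DMSO. DLGAP5, which stabilises the fibres at kinetochores, changed by log2 0.21 under EPZ5676 and 0.42 under DMSO, with overlapping libraries under EPZ5676. HMMR, a microtubule-binding protein that is also a hyaluronan receptor, did not pass the test, at 0.00 ± 0.10 under EPZ5676 (edgeR adjusted p = 0.982) and 0.08 ± 0.10 under DMSO (edgeR adjusted p = 0.525). It had 48.2, 52.4 and 65.0 CPM in EPZ5676 high cells and 52.0, 51.9 and 62.0 CPM in EPZ5676 low cells, and the groups overlapped in both treatments.

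**Figure D3:**
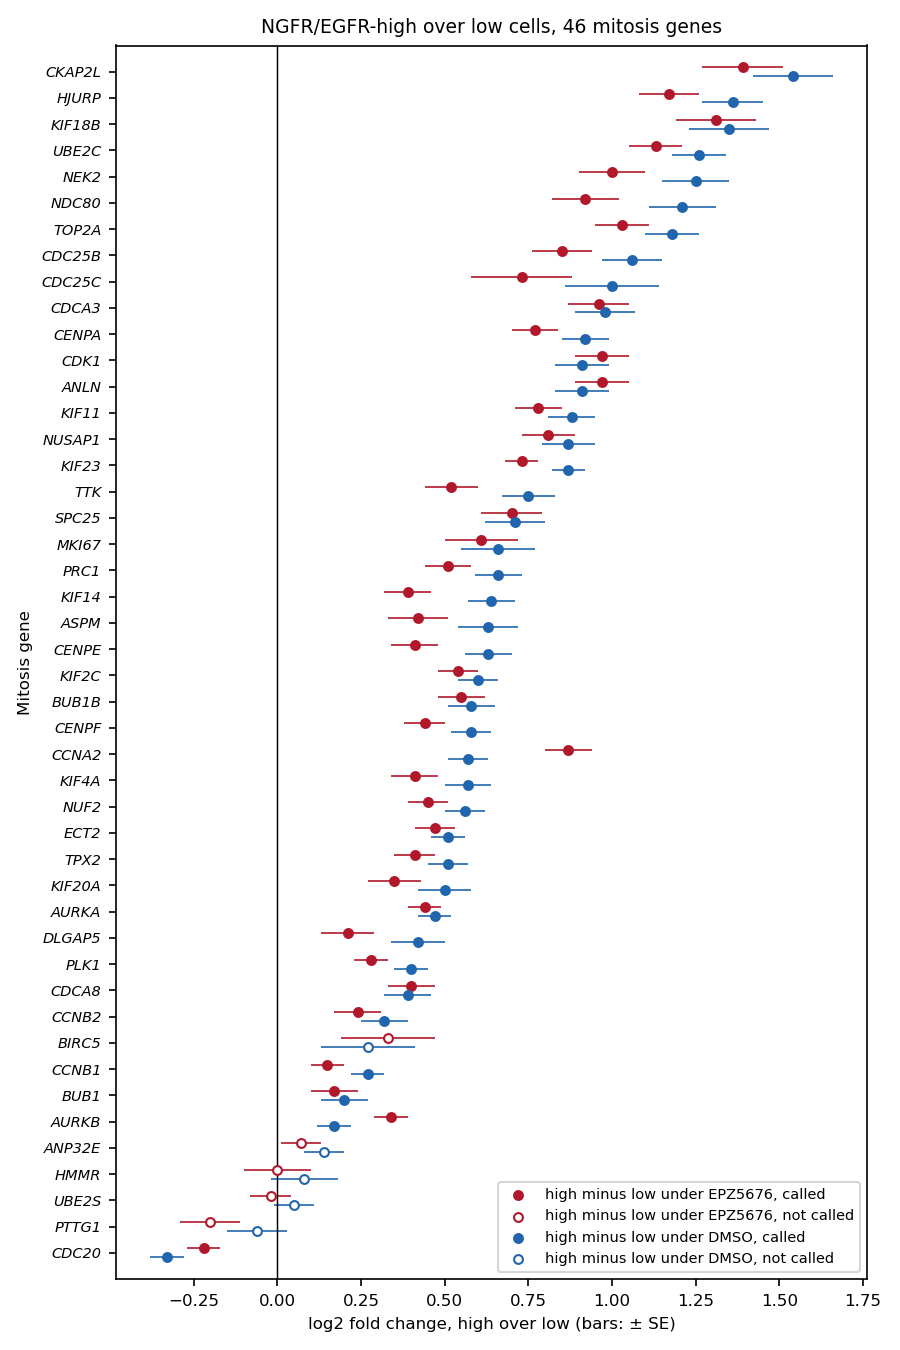
Log2 fold change of high over low cells for the 46 mitosis genes (rows), under EPZ5676 and under DMSO; points are edgeR estimates and bars their standard errors. CKAP2L stands at the top with 1.39 and 1.54, and CDC20 is the one called gene left of 0, at -0.22 and -0.33.

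The APC/C and ubiquitin genes were split. UBE2C, the ubiquitin-conjugating enzyme that starts chains for the APC/C, had 190.2, 192 and 199.5 CPM in EPZ5676 high cells, against 88.6, 90.0 and 88.0 CPM in EPZ5676 low cells, and 202, 213 and 209 CPM in DMSO high cells, against 86.4, 85.3 and 89.9 CPM in DMSO low cells. It was among the strongest risers, with log2 fold changes of 1.13 ± 0.08 under EPZ5676 (edgeR adjusted p = 2.40e-09) and 1.26 ± 0.08 under DMSO (edgeR adjusted p = 2.90e-10). CDC20, the activator through which the APC/C marks cyclin B and securin for destruction, had 167, 170.2 and 167 CPM in EPZ5676 high cells, against 199, 194 and 196 CPM in EPZ5676 low cells, and 156, 157 and 156 CPM in DMSO high cells, against 186, 203 and 200.2 CPM in DMSO low cells. Here every high library lay below every low library, with log2 fold changes of -0.22 ± 0.05 under EPZ5676 (edgeR adjusted p = 6.74e-04) and -0.33 ± 0.05 under DMSO (edgeR adjusted p = 6.35e-06). The processed copy CDC20P1 averaged 7.18 CPM in EPZ5676 high and 9.66 CPM in EPZ5676 low cells, and 7.71 CPM in DMSO high and 8.73 CPM in DMSO low cells, beside 156 to 203 CPM of CDC20 in the same libraries. UBE2S, which extends the chains, and PTTG1, securin itself, did not pass the test. UBE2S had log2 fold changes of -0.02 ± 0.06 under EPZ5676 (edgeR adjusted p = 0.756) and 0.05 ± 0.06 under DMSO (edgeR adjusted p = 0.456), and its copies UBE2SP1 and UBE2SP2 averaged 16.8 and 12.4 CPM. PTTG1 had log2 fold changes of -0.20 ± 0.09 under EPZ5676 (edgeR adjusted p = 0.0687) and -0.06 ± 0.09 under DMSO (edgeR adjusted p = 0.592), and its copy PTTG3P averaged 8.57 CPM. CDCA3, a cell-cycle protein that the APC/C degrades in G1, changed by log2 0.96 under EPZ5676 and 0.98 under DMSO and passed in both; it shared 9.71% of its exonic bases with GNB3 on the opposite strand.

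Among the chromatin genes, TOP2A, the topoisomerase that untangles sister chromatids, had 439, 429 and 474 CPM in EPZ5676 high cells, against 214, 216 and 228 CPM in EPZ5676 low cells, and 509, 497 and 473 CPM in DMSO high cells, against 223, 207 and 221 CPM in DMSO low cells. The groups were widely separated, with log2 fold changes of 1.03 ± 0.08 under EPZ5676 (edgeR adjusted p = 7.80e-09) and 1.18 ± 0.08 under DMSO (edgeR adjusted p = 4.96e-10). MKI67, the Ki-67 protein that coats mitotic chromosomes and is the standard stain for dividing cells, had 893, 871 and 986 CPM in EPZ5676 high cells, against 573, 589 and 635 CPM in EPZ5676 low cells, and 912, 732 and 954 CPM in DMSO high cells, against 595, 558 and 489 CPM in DMSO low cells. DMSO high replicate 2 was the lowest of the 6 high libraries for MKI67, yet still above all low libraries, and the log2 fold changes were 0.61 ± 0.11 under EPZ5676 (edgeR adjusted p = 1.89e-04) and 0.66 ± 0.11 under DMSO (edgeR adjusted p = 6.89e-05). ANP32E, a chaperone that removes the histone variant H2A.Z, did not pass the test, at 0.07 ± 0.06 under EPZ5676 (edgeR adjusted p = 0.391) and 0.14 ± 0.06 under DMSO (edgeR adjusted p = 0.0694).

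The smallest of these differences depended on single libraries. Under DMSO, BUB1 lost its call without DMSO high replicate 1, DMSO low replicate 2 or DMSO low replicate 3, with an edgeR adjusted p of up to 0.0860. Under EPZ5676, CCNB1 (up to 0.109), BUB1 (up to 0.126) and DLGAP5 (up to 0.232) lost theirs without EPZ5676 high replicate 3, low replicate 1 or low replicate 2. CCNB1 also lost it without EPZ5676 low replicate 3, BUB1 also without EPZ5676 high replicate 1, and CCNB2 (up to 0.0875) without EPZ5676 high replicate 3 alone. In DMSO 40 of 41 called members, and in EPZ5676 37 of 41, stayed called with each library left out in turn. Without the 6 libraries above 16% unassigned reads, 37 members rose under EPZ5676, and CDC20 stood at log2 -0.23 (edgeR adjusted p = 0.108), with 1 EPZ5676 high library left. AURKB kept its DMSO call with each library left out. It lost that call with library size alone, with no low-count filter and without the 6 libraries, at a log2 fold change down to 0.10 and an adjusted p up to 0.175. The melanocytic and fibroblast sums given above moved with the same sort, and their part in these differences was not tested.

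Other genes of the division cycle, taken from lists of further mitosis genes, of regulators and of DNA replication genes, did not all follow. Of 91 further mitosis genes, 64 rose and 6 fell in EPZ5676 high over low cells, and 63 rose and 7 fell in DMSO high over low cells, with medians of 0.36 and 0.32. Of 42 tested DNA replication genes, 25 rose and 2 fell under EPZ5676 with a median of 0.18, and 14 rose and 11 fell under DMSO with a median of 0.00. Of all tested genes 25.8% rose and 23.1% fell under EPZ5676, and 29.6% rose and 26.7% fell under DMSO. The DMSO counts of the replication genes were thus near the background. FOXM1, a forkhead factor that switches on G2 and mitosis genes, rose by log2 0.57 ± 0.07 under EPZ5676 (edgeR adjusted p = 2.07e-06) and 0.52 ± 0.07 under DMSO (edgeR adjusted p = 2.95e-06); 15.9% of its exonic bases are shared with ITFG2 on the opposite strand, at 30.8 CPM. MYBL2, the factor that joins MuvB at the same genes, had 265, 272 and 243 CPM in EPZ5676 high cells, against 194, 197 and 188 CPM in EPZ5676 low cells, and 222, 228 and 226 CPM in DMSO high cells, against 218, 228 and 223 CPM in DMSO low cells. It rose under EPZ5676 at log2 0.43 ± 0.05 (edgeR adjusted p = 8.72e-07), while its DMSO libraries overlapped at log2 0.01 ± 0.05 (edgeR adjusted p = 0.841). E2F1, which drives S-phase genes, had log2 fold changes of 0.29 ± 0.05 under EPZ5676 (edgeR adjusted p = 1.08e-04) and 0.13 ± 0.05 under DMSO (edgeR adjusted p = 0.0374), and the DMSO call was lost with any of 4 libraries left out (DMSO high replicate 1, DMSO low replicate 1, DMSO low replicate 2 or EPZ5676 low replicate 1; adjusted p up to 0.156). PCNA, the sliding clamp of DNA polymerases, changed by log2 0.23 under EPZ5676 and 0.14 under DMSO and passed in both. The DMSO call was lost without DMSO low replicate 1 or DMSO high replicate 2 (adjusted p up to 0.0680) and with library size alone (log2 0.07, adjusted p = 0.241). MCM2, a subunit of the replicative helicase, had log2 fold changes of 0.11 ± 0.05 under EPZ5676 (edgeR adjusted p = 0.0739) and -0.17 ± 0.05 under DMSO (edgeR adjusted p = 0.00725). RRM2, the ribonucleotide reductase subunit, led the replication genes at log2 1.29 under EPZ5676 and 1.23 under DMSO.

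Of 7 tested inhibitors of cyclin-dependent kinases, 5 rose and 0 fell under EPZ5676, and 6 rose and 0 fell under DMSO. Over all tested genes, 25.8% rose and 23.1% fell under EPZ5676, and 29.6% rose and 26.7% fell under DMSO. CDKN2A was called in neither treatment. CDKN1B was called under DMSO and not under EPZ5676, with an interaction of -0.36 ± 0.08 that was not called (edgeR adjusted p = 0.0684). CDKN1A, the p21 inhibitor of cyclin-dependent kinases, had 79.4, 69.5 and 77.8 CPM in EPZ5676 high cells, against 4.91, 5.99 and 4.43 CPM in EPZ5676 low cells, and 134, 125 and 129 CPM in DMSO high cells, against 4.03, 2.21 and 3.24 CPM in DMSO low cells. Each high library was many times above each low library, with log2 fold changes of 3.87 ± 0.61 under EPZ5676 (edgeR adjusted p = 1.61e-04) and 5.35 ± 0.65 under DMSO (edgeR adjusted p = 1.28e-05). CDKN1C, the p57 inhibitor, changed by log2 4.14 under EPZ5676 and 3.39 under DMSO, and CDKN2C, the p18 inhibitor of CDK4 and CDK6, by log2 1.42 under EPZ5676 and 2.00 under DMSO. CCND1, cyclin D1, which carries mitogen signals into G1, changed by log2 2.81 under EPZ5676 and 3.28 under DMSO, with 10.3% of its exonic bases shared with LTO1. Of 37 tested regulators, 21 rose and 7 fell under EPZ5676, and 20 rose and 10 fell under DMSO. The counts of regulators that fell were thus near the shares of all tested genes. CCNE1 and CDK4, which drive G1, fell in both treatments. The log2 fold change of CCNE1 was -0.35 under EPZ5676 and -0.78 under DMSO. That of CDK4 was -0.20 under EPZ5676 and -0.45 under DMSO, with 43.2% of its exonic bases shared with TSPAN31 on the opposite strand, at 16.5 CPM. CDK2 had the largest fall, at log2 -2.25 under EPZ5676 and -2.43 under DMSO, but 2.29% of its exonic bases are shared with PMEL on the opposite strand, a gene at 5847 CPM, so its counts are uncertain.

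**Figure D4:**
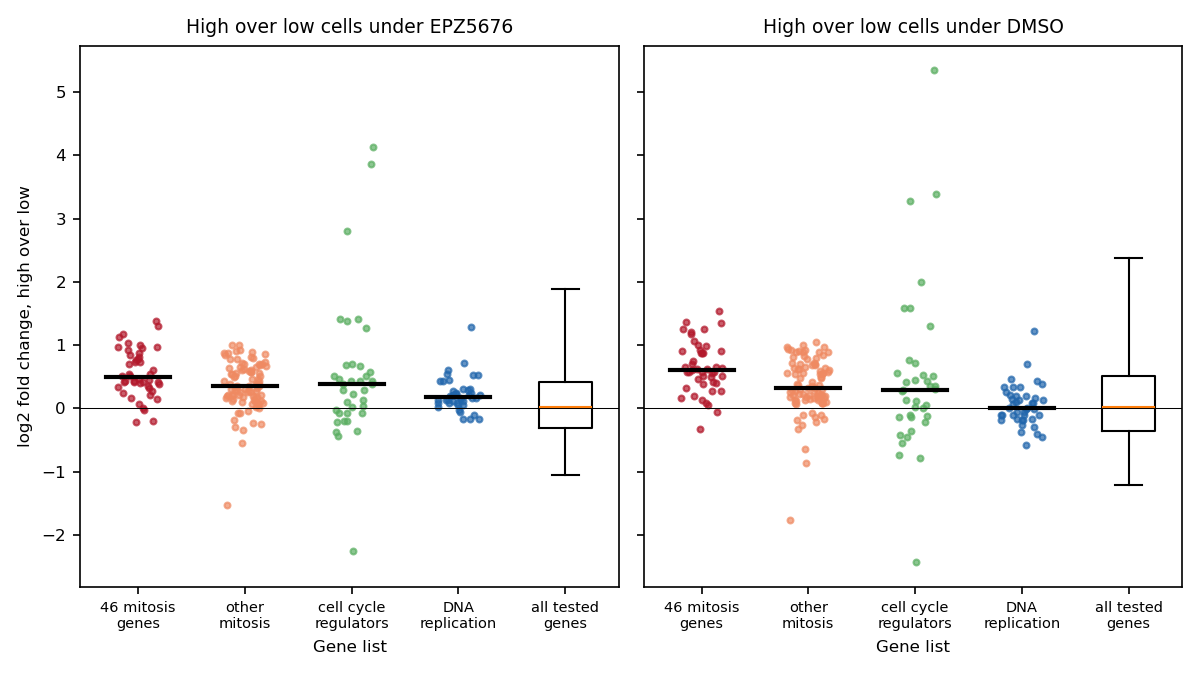
Log2 fold change of high over low cells, under EPZ5676 and under DMSO, for the 46 mitosis genes, the 91 further mitosis genes, the cell cycle regulators, the DNA replication genes and all 18121 tested genes; points are genes, thick lines medians, and for all genes the box spans the quartiles with whiskers at the 5th and 95th percentiles. The mitosis genes have the highest median of the gene lists in both treatments (0.49 and 0.61), and the replication genes spread on both sides of 0 under DMSO (-0.58 to 1.23, median 0.00). Members and lists were chosen with earlier results of these data known, so this order is a description and was not tested.

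Promoters are shown because most members moved together. Of the 46 genes, 40 have at least 1 promoter window in RefSeq (GRCh38.p14, from 250 bases before to 50 bases after the transcription start); BIRC5, TTK, UBE2C, AURKA, TPX2 and ANP32E are not among them. The windows were searched on both strands for the hexamer TTTGAA, a form of the cell cycle genes homology region that MuvB complexes bind, for its variant with the letters TTTAAA, and for the box of the factor NF-Y, which reads CCAAT. At least 1 of the hexamers was present in 35 of the 40 members (87.5%), in 41 of 78 further mitosis genes (52.6%), in 5 of 36 replication genes (13.9%) and in 7605 of all 27305 genes with a window (27.9%). Within the last 50 bases before the start, 19 of 40 members (47.5%) held one, against 5.49% of all genes. CCAAT was present in 34 of 40 members (85%), against 39.7% of all genes. By response, 32 of 36 members that rose in DMSO high cells, the 1 that fell and 2 of 3 that were not called held a hexamer. A match here is a match of letters and shows no binding. Below are 200 bases ending at the base before the start, 5′ to 3′ on the gene's own strand, for a cyclin, a kinase, the topoisomerase, the 2 genes with the largest DMSO fold changes, the kinesin KIF23, the lower gene CDC20 and the uncalled gene HMMR. Capitals mark the hexamers and the NF-Y box, each on either strand.
CCNB1, chr5:69166950-69167149, plus strand: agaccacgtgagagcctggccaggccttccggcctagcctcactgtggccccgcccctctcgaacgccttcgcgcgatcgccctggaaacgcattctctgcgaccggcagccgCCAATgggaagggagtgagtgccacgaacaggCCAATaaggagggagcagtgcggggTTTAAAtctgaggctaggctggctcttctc
PLK1, chr16:23678689-23678888, plus strand: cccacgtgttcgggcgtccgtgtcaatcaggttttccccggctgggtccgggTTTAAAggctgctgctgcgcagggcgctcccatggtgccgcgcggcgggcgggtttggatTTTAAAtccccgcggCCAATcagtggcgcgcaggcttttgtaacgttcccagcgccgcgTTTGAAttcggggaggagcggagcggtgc
TOP2A, chr17:40417897-40418096, minus strand: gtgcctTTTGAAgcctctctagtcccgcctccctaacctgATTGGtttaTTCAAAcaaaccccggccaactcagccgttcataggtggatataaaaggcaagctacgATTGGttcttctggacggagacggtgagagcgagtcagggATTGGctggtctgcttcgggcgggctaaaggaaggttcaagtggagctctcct
HJURP, chr2:233854536-233854735, minus strand: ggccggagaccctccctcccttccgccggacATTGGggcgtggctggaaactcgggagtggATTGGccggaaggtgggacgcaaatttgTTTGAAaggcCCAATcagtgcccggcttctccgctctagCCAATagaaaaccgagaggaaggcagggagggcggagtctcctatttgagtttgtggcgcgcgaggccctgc
CKAP2L, chr2:112764610-112764809, minus strand: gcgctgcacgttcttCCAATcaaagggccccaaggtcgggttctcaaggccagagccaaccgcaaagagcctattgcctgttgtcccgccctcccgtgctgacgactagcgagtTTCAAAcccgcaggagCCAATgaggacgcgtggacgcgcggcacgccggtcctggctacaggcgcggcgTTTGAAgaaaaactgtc
KIF23, chr15:69414149-69414348, plus strand: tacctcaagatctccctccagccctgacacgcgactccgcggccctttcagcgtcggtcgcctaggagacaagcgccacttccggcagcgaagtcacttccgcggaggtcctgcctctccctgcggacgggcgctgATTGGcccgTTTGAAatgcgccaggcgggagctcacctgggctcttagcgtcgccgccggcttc
CDC20, chr1:43358781-43358980, plus strand: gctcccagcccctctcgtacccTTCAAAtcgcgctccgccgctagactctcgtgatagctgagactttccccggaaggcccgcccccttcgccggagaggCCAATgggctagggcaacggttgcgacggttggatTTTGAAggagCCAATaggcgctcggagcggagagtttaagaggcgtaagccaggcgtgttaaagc
HMMR, chr5:163460432-163460631, plus strand: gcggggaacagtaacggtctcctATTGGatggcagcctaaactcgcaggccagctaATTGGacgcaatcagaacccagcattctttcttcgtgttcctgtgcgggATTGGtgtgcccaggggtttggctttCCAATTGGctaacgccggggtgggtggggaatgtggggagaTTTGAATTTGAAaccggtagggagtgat
In CCNB1 a TTTAAA begins 30 bases before the start, in PLK1 a TTTGAA begins 29 bases before it, and in CKAP2L a TTTGAA begins 17 bases before it. In CDC20 a TTTGAA begins 65 bases before the start, with a CCAAT box on each side of it. In HMMR a TTTGAA begins 22 bases before the start, with CCAAT boxes upstream of it. CDC20, which fell, and HMMR, which did not pass the test, both held a TTTGAA. So did PLK1, TOP2A, HJURP, CKAP2L and KIF23, which rose, while the stretch of CCNB1, which also rose, held TTTAAA only. Whether the hexamers have a part in the direction of change was not tested.

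Within any single population, few mitosis genes differed between EPZ5676 and DMSO. In bulk cells 0 of 46 members rose and 0 fell under EPZ5676 against DMSO (0.497% of all tested genes rose and 0.232% fell), with a median log2 fold change of -0.08 against -0.01 over all genes. At an unadjusted p below 0.05, 1 was higher and 13 were lower, and DESeq2 and limma-voom each called 0. For counts at an unadjusted p, by DESeq2 or limma-voom, or with libraries left out, no share over all tested genes is given here or below. All 3 EPZ5676 libraries lay below all 3 DMSO libraries in 8 members (7.64% of all tested genes) and above them in 1 (8.21%). Without DMSO bulk replicate 3, edgeR called 2 lower. Summed over the 46 genes, EPZ5676 bulk cells averaged 5965 ± 151 CPM and DMSO bulk cells 6330 ± 537 CPM (SD, n = 3 each), a difference of -5.76%. Without DMSO bulk replicate 1, which was the highest of its group in 37 of the 46 genes, the difference was -0.918%. In low cells 0 rose and 0 fell (0.712% and 0.326% of all tested genes), with a median of 0.00 against 0.00 over all genes. At an unadjusted p below 0.05, 2 were higher and 5 were lower there, and DESeq2 and limma-voom each called 0. Non-overlapping libraries were lower in 7 members (11.5% of all tested genes) and higher in 3 (11.6%), and without DMSO bulk replicate 1 edgeR called 2 lower. The low sums averaged 5322 ± 196 CPM with EPZ5676 and 5346 ± 97.1 CPM with DMSO, a difference of -0.447%.

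In high cells 0 members rose and 2 fell, KIF23 and ANP32E (1.95% of all tested genes rose and 1.04% fell), with a median of -0.10. KIF23 had 149, 143 and 142 CPM in EPZ5676 high cells and 170.5, 174 and 170.5 CPM in DMSO high cells. The libraries did not overlap, and the log2 fold change was -0.25 ± 0.05 (edgeR adjusted p = 0.0107). ANP32E had 202, 199.8 and 212 CPM in EPZ5676 high cells and 233, 268 and 234 CPM in DMSO high cells. These did not overlap either, at a log2 fold change of -0.26 ± 0.06 (edgeR adjusted p = 0.0279). KIF23 lost its call without EPZ5676 high replicate 2 or 3 (adjusted p up to 0.0627), and ANP32E without any EPZ5676 high replicate or DMSO high replicate 2 (up to 0.145). All 3 EPZ5676 libraries lay below all 3 DMSO libraries in 20 members (12.1% of all tested genes) and above them in 1 (12.7%). DESeq2 called 5 members lower and limma-voom 3, and with DMSO bulk replicate 1 left out of the fit edgeR called 8. The marker sums given above also differed by treatment in high cells without overlap. The melanocytic sum was 1851 to 2024 CPM with EPZ5676 and 1235 to 1448 CPM with DMSO. The fibroblast sum was 603 to 743 CPM with EPZ5676 and 1076 to 1411 CPM with DMSO. Their part in these differences was not tested. The high sums averaged 7764 ± 288 CPM with EPZ5676 and 8275 ± 132 CPM with DMSO, a difference of -6.18%.

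Averaged over the 3 populations, 0 members rose and 9 fell under EPZ5676 (4.47% of all tested genes rose and 3.79% fell). The 9 were CCNB1, CDK1 and CDC25B of mitotic entry, the kinases AURKA and NEK2, the kinesins KIF11, KIF18B and KIF23, and ANP32E, with mean log2 fold changes of -0.23 to -0.12. KIF18B, the largest, had 73.2, 70.9 and 85.4 CPM in EPZ5676 bulk cells and 124, 91.8 and 81.3 CPM in DMSO bulk cells, which overlapped, and its mean log2 fold change was -0.23 ± 0.07 (edgeR adjusted p = 0.0477). NEK2 had 29.7, 27.5 and 31.2 CPM in EPZ5676 bulk cells and 43.2, 28.9 and 33.0 CPM in DMSO bulk cells, also overlapping, and a mean log2 fold change of -0.21 ± 0.06 (edgeR adjusted p = 0.0233). CDC25B had 235, 245 and 237 CPM in EPZ5676 bulk cells and 341, 253 and 238 CPM in DMSO bulk cells, and a mean of -0.19 ± 0.05 (edgeR adjusted p = 0.0388). In each of these genes DMSO bulk replicate 1 was the highest bulk library. CDK1 had 101, 107 and 99.5 CPM in EPZ5676 bulk cells and 135, 104 and 109 CPM in DMSO bulk cells, and a mean of -0.17 ± 0.05 (edgeR adjusted p = 0.0334). ANP32E and KIF23 had means of -0.17 ± 0.04 and -0.16 ± 0.03 (edgeR adjusted p = 0.00467 and 0.00160), CCNB1 and AURKA of -0.14 ± 0.03 and -0.12 ± 0.03 (0.00829 and 0.00872), and KIF11 of -0.14 ± 0.04 (0.0457).

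CCNB1, AURKA, KIF23 and ANP32E stayed called with each library left out in turn. The count of 9 ran from 4, without EPZ5676 high replicate 2, to 10, without DMSO bulk replicate 1 or 3. NEK2 lost its call without EPZ5676 bulk, high or low replicate 2 (adjusted p up to 0.0596). CDK1 lost it with any of 10 libraries left out, CDC25B with any of 12, KIF11 with any of 13 and KIF18B with any of 14, at adjusted p of up to 0.0758, 0.0835, 0.0975 and 0.0996. Of the 6 libraries with over 16% unassigned reads, 5 were EPZ5676 libraries: without them 0 members were called lower, and with the unassigned share as a covariate 4 were. Without those libraries EPZ5676 bulk and EPZ5676 high cells keep 1 library each. The log2 fold changes of the 9 genes then ran from -0.27 for KIF18B to -0.10 for CDK1 and KIF11, with KIF23 at -0.18, ANP32E at -0.17, CCNB1 at -0.12 and AURKA at -0.11. Among the regulators EPZ5676 lowered CDKN1B and CDKN2A in high cells, by log2 -0.43 ± 0.06 and -0.41 ± 0.08 (edgeR adjusted p = 1.83e-04 and 0.00505), and raised CCNE1, CDK4 and MYBL2 there, by 0.38, 0.22 and 0.21 (edgeR adjusted p = 0.0367, 0.0400 and 0.0322). The last 3 calls depended on single libraries. CCNE1 lost its call with any of 7 single libraries left out (adjusted p up to 0.154) and CDK4 with any of 11 (up to 0.214). The overlap of CDK4 with TSPAN31 given above applies here too. MYBL2 lost its call with any of 5 (each DMSO high replicate and EPZ5676 high replicates 1 and 2; up to 0.202). Without the 6 libraries MYBL2 stood at log2 0.12 (adjusted p = 0.917). In high cells CDKN2A lost its call without EPZ5676 high replicate 2 (edgeR adjusted p = 0.0541). It was also lower in low cells, by log2 -0.38 ± 0.08 (edgeR adjusted p = 0.0138). In the mean of the 3 populations 5 of 37 tested regulators were lower and 1 higher, where 3.79% and 4.47% of all tested genes were. CDKN2C, TFDP2, CDKN2A and CDKN1B had the largest falls there, and the higher one was CDKN2B. Of 91 further mitosis genes 13 were lower and 0 higher in that mean, beside the same shares of all tested genes. How far those 13 calls depended on single libraries is not given. In high cells 1 of the 91 was lower and 0 higher, where 1.04% and 1.95% of all tested genes were. It was the kinase WEE1, which holds CDK1 inactive, lower by log2 -0.40 ± 0.07 (edgeR adjusted p = 0.00188).

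**Figure D5:**
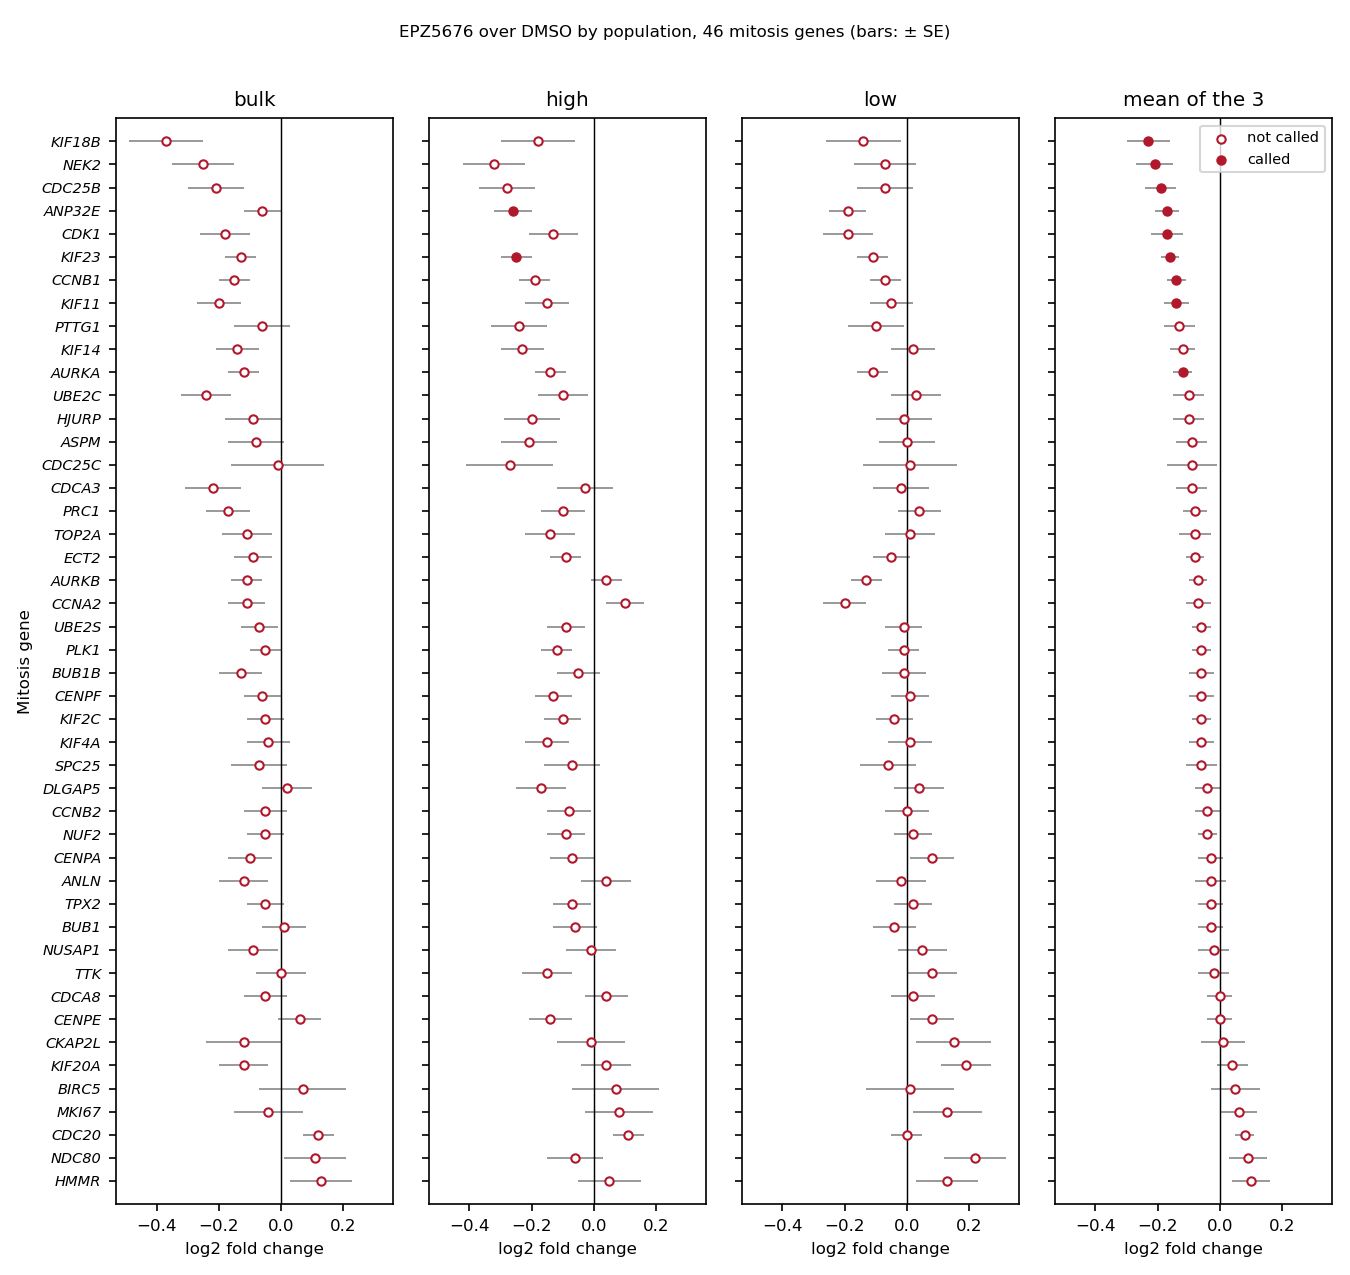
Log2 fold change of EPZ5676 over DMSO for the 46 mitosis genes (rows) in bulk, high and low cells and over the mean of the 3 populations; points are edgeR estimates, bars standard errors, and filled points pass an adjusted p of 0.05. Filled points appear for KIF23 and ANP32E in high cells and for 9 genes in the mean, all left of 0, and for no gene in bulk or low cells.

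Whether the gap between high and low cells changed with EPZ5676 was tested as an interaction of treatment and sort. In that test 0 members were called higher and 0 lower (0.204% and 0.116% of all tested genes), with a median of -0.10. At an unadjusted p below 0.05, 2 were higher and 3 lower, and DESeq2 and limma-voom each called 0; without DMSO bulk replicate 1, edgeR called 1 higher. The largest gap in a member was that of CCNA2, at 0.30 ± 0.09 (edgeR adjusted p = 0.196). Of the 46 estimates, though, 39 lay below 0, down to -0.29, and 7 above it. Over all tested genes the median was 0.00, with 9090 below 0 and 9031 above.

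Bulk cells lay between low and high cells for most members. The bulk mean fell between the low and high means in 42 of 46 members under EPZ5676 and in 40 under DMSO. Among those it was nearer the low mean in 39 and 35. These counts have no share over all tested genes beside them, so they are not read as a trait of the members. In EPZ5676 bulk over EPZ5676 low cells 1 member rose and 0 fell, where 0.00552% and 0% of all tested genes did. That member, CCNA2, was the one gene called of all 18121. CCNA2 had 66.9, 68.1 and 72.5 CPM in EPZ5676 bulk cells and 50.1, 49.5 and 54.5 CPM in EPZ5676 low cells, which did not overlap, with a log2 fold change of 0.43 ± 0.07 (edgeR adjusted p = 0.0289). The call was lost with any of 7 libraries left out (each EPZ5676 bulk replicate, EPZ5676 low replicates 1 and 2, EPZ5676 high replicate 2 and DMSO high replicate 3), at an adjusted p of up to 0.442, and 14 members were called without DMSO bulk replicate 1. Non-overlapping higher libraries were found for 27 members (10.7% of all tested genes) and lower ones for 0 (8.57%), and 25 members were higher and 0 lower at an unadjusted p below 0.05. CCNA2 shared 9.08% of its exonic bases with EXOSC9 on the opposite strand, a gene at 44.7 CPM.

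In DMSO bulk over DMSO low cells 13 members rose and 0 fell (0.966% and 0.121% of all tested genes), with a median of 0.23. KIF18B had 124, 91.8 and 81.3 CPM in DMSO bulk cells and 67.2, 58.7 and 63.1 CPM in DMSO low cells, at log2 0.65 ± 0.12 (edgeR adjusted p = 0.0221). UBE2C had 154, 125 and 113 CPM in DMSO bulk cells and 86.4, 85.3 and 89.9 CPM in DMSO low cells, at log2 0.58 ± 0.08 (edgeR adjusted p = 0.00164). Both genes were highest in replicate 1 of the bulk libraries, and neither overlapped. CKAP2L had 71.6, 47.3 and 50.3 CPM in DMSO bulk cells and 40.0, 38.4 and 36.9 CPM in DMSO low cells, at log2 0.55 ± 0.12 (edgeR adjusted p = 0.0384). CENPA had 45.5, 40.8 and 40.0 CPM in DMSO bulk cells and 28.2, 30.1 and 29.8 CPM in DMSO low cells, at log2 0.52 ± 0.07 (edgeR adjusted p = 0.00164). All bulk libraries exceeded all low ones for these genes and for 36 members in all (10.0% of all tested genes), and for 0 members the reverse held (9.30%). Without DMSO bulk replicate 1, 10 members were called. The count was 25 and 23 without DMSO bulk replicates 2 and 3, 14 without DMSO high replicate 2, 3 or 4 without 1 DMSO low replicate, and 7 or 8 without any other single library; CENPA, UBE2C and TOP2A stayed called each time. DMSO bulk replicate 1 had melanocytic markers of 5006 CPM and fibroblast markers of 430.2 CPM, where the other two DMSO bulk libraries had 10271 and 10534 CPM and 90.0 and 90.3 CPM; its part in the difference was tested only by leaving it out.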

How the data were processed

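Poly(A) RNA of 18 WM989 libraries, 3 in each of 6 groups set by treatment and sort as the labels give them, was measured. The deposited table holds raw counts of read pairs per Ensembl gene, made by the authors; the submitters' processing notes name STAR, HTSeq and the build hg19; versions and the strand setting are not given in the sources used here, and the library kit is not named as a directional one, so reads of overlapping genes on opposite strands cannot be told apart. The 5 summary lines of the table were kept out of library sizes and tests; reads on no gene were 12.8 to 28.65% of a library, and reads on several genes 6.07 to 7.71%. Counting of reads, without molecular identifiers, limits precision at low counts.

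Symbols were matched through the gene name tables for 52181 identifiers and through GENCODE 29 for 345, while 11151 stayed unnamed; UHRF1 of the replication list was not matched. Exon lengths and overlaps came from GENCODE 29, whose build differs from hg19, so no member coordinates are given other than those of RefSeq promoter windows (GRCh38.p14). In 34 of 50 member windows the bases after the start were found in a GENCODE transcript in the same orientation, and in 0 in reverse.

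The fit was edgeR 4.0.16 (R 4.3.3; filterByExpr, TMM, robust quasi-likelihood) over all 18 libraries with 1 coefficient per group and 9 comparisons; a gene was called at a Benjamini-Hochberg adjusted p below 0.05 over 18121 genes. Alternatives were DESeq2 1.42.0, limma-voom (limma 3.58.1), other scaling and filters, fits of the compared groups alone, a replicate block, the unassigned share as a covariate, and left-out libraries. The scripts were tested on simulated counts. No 2 libraries held identical counts. Members and lists were chosen with earlier results of these data known. All 46 members could be named; values in every library were given for 13 textbook members and for up to 4 called members with the largest change per comparison and direction, with ANLN added after its values were seen. FOXM1, MYBL2, E2F1, CDKN1A, PCNA and MCM2 were always named, and up to 4 called genes of each other list per comparison and direction could be.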

Additional observations from a re-analysis of the deposited data

Results flagged for a closer look

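The gap between high and low cells differed between EPZ5676 and DMSO for 2 genes of the other lists, by the edgeR interaction term. They were 1 of 37 tested regulators and 1 of 42 tested replication genes, both called higher. Of 91 further mitosis genes 0 were called. Over all 18121 tested genes, 37 were called higher (0.204%) and 21 lower (0.116%). The interaction lay above 0 in 40 of the 42 replication genes, with a median of 0.17. MYBL2, the factor that joins MuvB complexes at mitosis genes, had 265, 272 and 243 CPM in EPZ5676 high cells and 194, 197 and 188 CPM in EPZ5676 low cells, and 222, 228 and 226 CPM in DMSO high cells and 218, 228 and 223 CPM in DMSO low cells. High libraries lay above low ones under EPZ5676 and overlapped them under DMSO, and the interaction was 0.42 ± 0.07 on the log2 scale (edgeR adjusted p = 0.0136). It was lost without any 1 of 5 libraries (DMSO high replicate 1, DMSO low replicate 2, EPZ5676 high replicates 1 and 2, EPZ5676 low replicate 3; adjusted p up to 0.0793). GINS2, a subunit of the replicative helicase, had 46.2, 48.4 and 45.9 CPM in EPZ5676 high cells and 43.9, 43.4 and 45.2 CPM in EPZ5676 low cells, and 40.7, 42.5 and 37.7 CPM in DMSO high cells and 47.6, 54.3 and 56.0 CPM in DMSO low cells. High libraries lay above low ones under EPZ5676 and below them under DMSO, and the interaction was 0.47 ± 0.10 (edgeR adjusted p = 0.0424). It was lost with any of 13 single libraries left out (adjusted p up to 0.156). It was also lost with the replicate block, with the unassigned share as a covariate and without the 6 libraries above 16% unassigned reads (adjusted p up to 0.997). The EPZ5676 difference of GINS2 was itself not called, at log2 0.08 (edgeR adjusted p = 0.340). Without the 6 libraries the interaction of MYBL2 was 0.33 (adjusted p = 0.997).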

How the results depend on the processing

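No member that was called changed direction under any setting tried. Of 41 members called between high and low cells, 39 under DMSO and 36 under EPZ5676 stayed called in every setting. Counts of members lower in EPZ5676 high over low cells were 2 with library size alone, with only the groups compared and with the replicate block, and 0 without the 6 libraries above 16% unassigned reads. Members lower under EPZ5676 numbered, in high cells, 5 with DESeq2, 6 with only the groups compared, and 0 without the 6 libraries, with or without DMSO bulk replicate 1. In bulk cells they were 2 with no low-count filter, and in low cells 1 with only the groups compared. In the mean of the populations they were 5 with a mean of at least 5 CPM (with 1 higher), 4 with the unassigned share as covariate, 0 without the 6 libraries and 3 without those and DMSO bulk replicate 1, a setting chosen after seeing the data. The interaction called 1 higher with only the groups compared. Bulk over low cells gave, under DMSO, 20 with no filter, 25 with DESeq2, 7 with limma-voom, 0 with only the groups compared, 7 with the covariate, 0 without the 6 libraries and 7 without those and DMSO bulk replicate 1. Under EPZ5676 these were 6, 6, 1, 21, 0, 0 and 2. Library size alone put the summed level of DMSO high cells at 7973 CPM. With each library left out, counts ran 0 to 2 (EPZ5676 lower, bulk), 0 to 8 (high), 0 to 2 (low), 4 to 10 (mean), 39 to 41 (high over low, DMSO), 36 to 41 (EPZ5676, with 1 to 2 lower), 0 to 1 (interaction), 3 to 25 (bulk over low, DMSO) and 0 to 14 (EPZ5676). The cause of these shifts was not tested. Without the 6 libraries, EPZ5676 bulk and EPZ5676 high keep 1 library each, assumed to vary like the others.

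Same-numbered libraries did not deviate together (8 of 45 pairs correlated above 0.1, median r -0.01), so the numbers are not taken as pairs. A replicate block gave 40 higher and 1 lower for high over low cells under DMSO, 40 and 2 under EPZ5676, 3 lower under EPZ5676 in high cells, 7 lower in the mean, and 10 and 1 higher for bulk over low cells under DMSO and EPZ5676. DESeq2 gave no adjusted p for CDKN1A, CDKN1C and NGFR between high and low cells. Counting error is larger for the members with few counts, such as CDC25C, and the number of libraries limits the precision too.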

Other observations

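Further mitosis genes were counted by complex, beside 25.8% higher and 23.1% lower of all tested genes under EPZ5676 and 29.6% and 26.7% under DMSO. Differences between complexes were not tested. All 8 condensin genes, which compact chromosomes, were called higher in high over low cells in both treatments, with medians of 0.42 under EPZ5676 and 0.44 under DMSO, and so were all 5 further kinesins, with medians of 0.65 and 0.83. Among 10 spindle-pole genes, 9 were higher in each treatment, led under EPZ5676 by PLK4, the kinase that starts centriole duplication, at log2 1.00 under EPZ5676 and 0.90 under DMSO. Of 27 kinetochore genes 19 were higher and 0 lower in each treatment. Of 8 cohesin and separase genes 7 were higher and 1 lower under EPZ5676, and 6 and 1 under DMSO. Of 10 kinase and phosphatase genes 6 were higher and 1 lower in each. Of 4 cytokinesis genes 2 were higher and 0 lower under EPZ5676, and 3 and 0 under DMSO. Of 3 checkpoint genes 2 were higher and 1 lower under EPZ5676, and 1 and 1 under DMSO. KNL1, the kinetochore scaffold that recruits BUB1, had log2 fold changes of 0.89 under EPZ5676 and 1.05 under DMSO, and MELK, a kinase of dividing cells, of 1.00 under EPZ5676 and 1.01 under DMSO. STAG1, a cohesin subunit, had 0.68 under EPZ5676 and 0.97 under DMSO, but 21.2% of its exonic bases are shared with PCCB on the opposite strand.

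Of 16 APC/C genes outside the 46, 6 were higher and 3 lower under EPZ5676, and 6 higher and 4 lower under DMSO, shares near those of all tested genes. CDC16, a scaffold subunit of the complex, had 44.0, 45.7 and 50.1 CPM in EPZ5676 high cells and 133, 130.3 and 137 CPM in EPZ5676 low cells, and 42.9, 40.8 and 43.9 CPM in DMSO high cells and 146, 140.1 and 146 CPM in DMSO low cells. Its high libraries lay far below its low ones, with log2 fold changes of -1.52 ± 0.19 under EPZ5676 (edgeR adjusted p = 2.52e-05) and -1.76 ± 0.20 under DMSO (edgeR adjusted p = 4.53e-06), the lowest of the 91 genes. ANAPC1, the largest subunit, had log2 fold changes of -0.55 ± 0.08 under EPZ5676 (edgeR adjusted p = 8.33e-06) and -0.64 ± 0.08 under DMSO (edgeR adjusted p = 8.10e-07), and CDC23 of -0.30 ± 0.07 under EPZ5676 (edgeR adjusted p = 5.69e-04) and -0.32 ± 0.07 under DMSO (edgeR adjusted p = 2.48e-04). FBXO5, an inhibitor of the complex, was higher, at 0.93 ± 0.08 under EPZ5676 (edgeR adjusted p = 1.34e-08) and 0.90 ± 0.08 under DMSO (edgeR adjusted p = 6.40e-09). CDC25A, the phosphatase that acts mainly in S phase, was lower, at -0.34 ± 0.09 under EPZ5676 (edgeR adjusted p = 0.00281) and -0.86 ± 0.09 under DMSO (edgeR adjusted p = 7.07e-08).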
